A study of Mus musculus with 36 samples.

Results

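The genes described here are 6 fibroblast growth factor (FGF) ligands, Fgf3, Fgf4, Fgf5, Fgf8, Fgf15 and Fgf17, and the 4 receptor tyrosine kinases that bind FGFs, Fgfr1, Fgfr2, Fgfr3 and Fgfr4. They were taken by symbol, through the Ensembl gene identifiers of the deposited tables, and are 10 of the 51912 gene rows. Polyadenylated RNA was sequenced from HM1 cells, a mouse embryonic stem cell line, at 12 times with 3 biological replicates each, 36 libraries in all: days 0, 0.5, 1, 1.5, 2, 2.5, 3, 3.5, 4, 5, 6 and 7. After feeder cells had been taken out, the cells grew in N2B27 medium with 10 ng/ml bFGF (basic FGF, the protein of Fgf2) from day -3, and on day -1 also with 5 uM CHIR99021, an inhibitor of GSK3 that activates Wnt signalling, 10 uM SB431542, an inhibitor of TGF-beta and activin receptors, and 2 uM DMH1, an inhibitor of BMP receptors. From day 0 the medium held 100 nM retinoic acid (RA) and 500 nM SAG, an activator of Hedgehog signalling through Smoothened, and the protocol no longer lists bFGF. The day 0 libraries are the labelled control and every later library is RA and SAG treated, so no untreated cells of the same age were sequenced, and time, the end of bFGF and the start of RA and SAG cannot be told apart. The labels call the starting cells neuromesodermal progenitors and the product neural progenitors. They do not say whether the replicates were grown as separate cultures, so the p-values below measure the spread between these libraries, which may be technical.

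FGFs are secreted proteins that bind an FGF receptor together with heparan sulfate, which switches on the receptor's kinase and, through adaptor proteins, the RAS and ERK cascade. ERK in turn switches on feedback inhibitors (Spry, Spred and Dusp genes, Il17rd) and ETS transcription factors such as Etv4 and Etv5, which serve as readouts of the signal. In the embryo, Fgf8 and its relatives keep the caudal epiblast, the growing tail end, in an undifferentiated state, and retinoic acid from the somites opposes them as cells enter the spinal cord. Fgfr3 is known in the later spinal cord as a gene of ventricular zone progenitors and astrocytes.

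Library totals ran from 26567321 to 35757989 expected counts, and none of the 36 replicate pairs was so alike that it could be 1 library deposited again. Levels are given in TPM, a gene's share of the transcripts of a library after correction for gene length, so levels of different genes can be compared. At day 0 the marker genes of caudal epiblast and neuromesodermal cells summed to 929 TPM (877 to 962 over the 3 libraries, 7 of 7 markers at 1 TPM or more) and those of neural progenitors to 61.7 TPM (3 of 5 markers). At day 0.5 the first stood at 237 TPM and the second at 435 TPM with 5 of 5 markers. By day 7 the caudal list stood at 1.62 TPM with 2 of its 7 markers at 0, pluripotent and epiblast markers had gone from 440 to 4.83 TPM, and epithelial markers from 453 to 16.7 TPM. Over the same days neuron markers went from 62.9 to 1278 TPM, astroglial and radial glial markers from 14.8 to 3503 TPM, floor plate markers from 27.9 to 1948 TPM, and oligodendrocyte precursor markers from 1.63 to 39.7 TPM. Fibroblast or feeder markers went from 32.6 TPM at day 0 through 14.0 TPM at day 1.5 to 867 TPM at day 7, and endothelial markers from 3.21 TPM to their highest value of 72.0 TPM at day 3. Markers of the midbrain-hindbrain boundary, a well known site of Fgf8, Fgf15 and Fgf17 expression, summed to between 1.79 and 4.42 TPM at every time, and those of paraxial mesoderm to between 4.18 and 14.7 TPM. These are bulk libraries, in which fewer cells of a type and less RNA per cell cannot be told apart.

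The promoters of 4 members are shown. Fgf4 and Fgf5 are ligands that fell at the first step and of which only Fgf5 came back above 1 TPM in the mean, and Fgfr2 and Fgfr3 are receptors that rose at that step and moved in opposite directions at each step from day 2 to day 3.5. Fgf8, Fgf15, Fgf17 and Fgfr1 had no entry. Each line gives the 250 bases before an annotated start site, 5′ to 3′ on the gene's own strand, from RefSeq on GRCm38.p6. Capitals mark GC boxes (GGGCGG on either strand, CCGCCC as read here) and ETS core sites (CCGGAA on either strand, TTCCGG as read here).
Fgf4, chr7:144861136-144861385, plus strand: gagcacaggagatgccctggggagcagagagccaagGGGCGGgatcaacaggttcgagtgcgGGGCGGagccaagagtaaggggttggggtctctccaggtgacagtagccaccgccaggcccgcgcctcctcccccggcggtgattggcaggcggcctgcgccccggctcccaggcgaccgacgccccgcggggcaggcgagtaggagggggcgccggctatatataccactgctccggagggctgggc
Fgf5, chr5:98253934-98254183, plus strand: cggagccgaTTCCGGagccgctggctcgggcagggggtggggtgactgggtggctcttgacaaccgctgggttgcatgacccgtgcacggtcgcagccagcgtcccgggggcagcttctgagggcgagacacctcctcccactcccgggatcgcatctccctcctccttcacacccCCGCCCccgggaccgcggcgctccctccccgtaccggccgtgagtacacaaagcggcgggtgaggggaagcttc
Fgfr2, chr7:130266809-130267058, minus strand: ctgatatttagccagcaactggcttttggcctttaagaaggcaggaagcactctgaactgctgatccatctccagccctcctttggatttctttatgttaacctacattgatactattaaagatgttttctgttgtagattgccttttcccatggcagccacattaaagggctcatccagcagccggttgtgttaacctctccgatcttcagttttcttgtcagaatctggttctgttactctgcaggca
Fgfr3, second of its 2 start sites, chr5:33722056-33722305, plus strand: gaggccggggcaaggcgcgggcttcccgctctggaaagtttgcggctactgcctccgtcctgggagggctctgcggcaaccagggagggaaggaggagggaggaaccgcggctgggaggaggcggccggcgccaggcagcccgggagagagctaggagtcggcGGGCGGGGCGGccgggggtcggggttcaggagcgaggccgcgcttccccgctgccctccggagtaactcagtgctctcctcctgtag
The printed windows of Fgf4 and Fgfr3 hold 2 GC boxes each, those of Fgfr3 sharing 1 base, and the window of Fgf5 holds 1 GC box and 1 ETS site. The printed Fgfr3 window lies inside the annotated span of the gene (33721674 to 33737068) and holds 0 bases of its own exons. The window of the first Fgfr3 start site (chr5:33721474-33721723), not printed, holds GC boxes that begin at bases -103, -71 and -31. The Fgfr2 window has 44.0% G and C bases and none of the motifs searched, while the other windows have 70.8% to 72.8%. A GC box occurs in 32.7% and this ETS core in 12.0% of the 32851 promoter windows of the table. The other motifs searched on both strands were a Gli site (GACCACCCA, in 0.225% of windows), the retinoic acid receptor hexamer AGGTCA (14.0%), a pair of such hexamers 5 bases apart (0.00913%), the octamer ATGCAAAT (1.60%) and the TATA box TATAAA (12.4%), and none of these lies in the windows of the members in the table (Fgf3, Fgf4, Fgf5, Fgfr2, Fgfr3 and Fgfr4). The whole printed Fgfr3 window is exon sequence of G630022F23Rik, a gene model on the other strand.

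All 10 members were called changed between day 0 and day 0.5, the highest count of the 11 steps, although the call of Fgf8 was lost under 5 of 13 alternatives. Fgf15, Fgf3 and all 4 receptors rose while Fgf8, Fgf17, Fgf4 and Fgf5 fell, and the 3 libraries of day 0.5 did not overlap those of day 0 for any of the 10 members. The share of all genes tested that were also free of overlap was not counted, so this is a description only. Each comparison used edgeR's quasi-likelihood test, and a change was called where p, adjusted by Benjamini-Hochberg over the 17990 genes tested, came under 0.05, and all 10 members were among those genes. In that first step 6 members rose and 4 fell, where 27.6% of all genes tested rose and 26.7% fell. From day 0.5 to day 1 the count was 2 higher and 6 lower, against 23.3% and 24.3% of all genes. At day 1.5 against day 1 it was 0 higher and 4 lower, against 27.0% and 19.4%, and at day 2 against day 1.5 it was 1 higher and 4 lower, against 26.1% and 27.2%. From day 2.5 to day 5 the members' counts lay near or below those shares, apart from the 3 falls at day 3. At day 2.5, 2 rose and 3 fell (24.9% and 22.9% of all genes), at day 3, 1 and 3 (18.1% and 16.3%), and at day 3.5, 2 and 2 (21.0% and 19.8%). At day 4, 1 rose and 1 fell (19.4% and 20.8%), and at day 5, 2 and 2 (21.2% and 16.8%), each against the time before. The step to day 6 had 5 higher and 2 lower against 24.1% and 26.4% of all genes, and 4 of these 7 calls (Fgf4, Fgf5, Fgf17 and Fgfr4) were lost under at least 1 alternative. From day 6 to day 7, 0 rose and 2 fell (11.3% and 8.95% of all genes). Day 7 against day 0 gave 3 higher and 6 lower members, against 44.1% and 41.2%, and over all times every member changed, as did 96.1% of the genes tested.

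**Figure D1:**
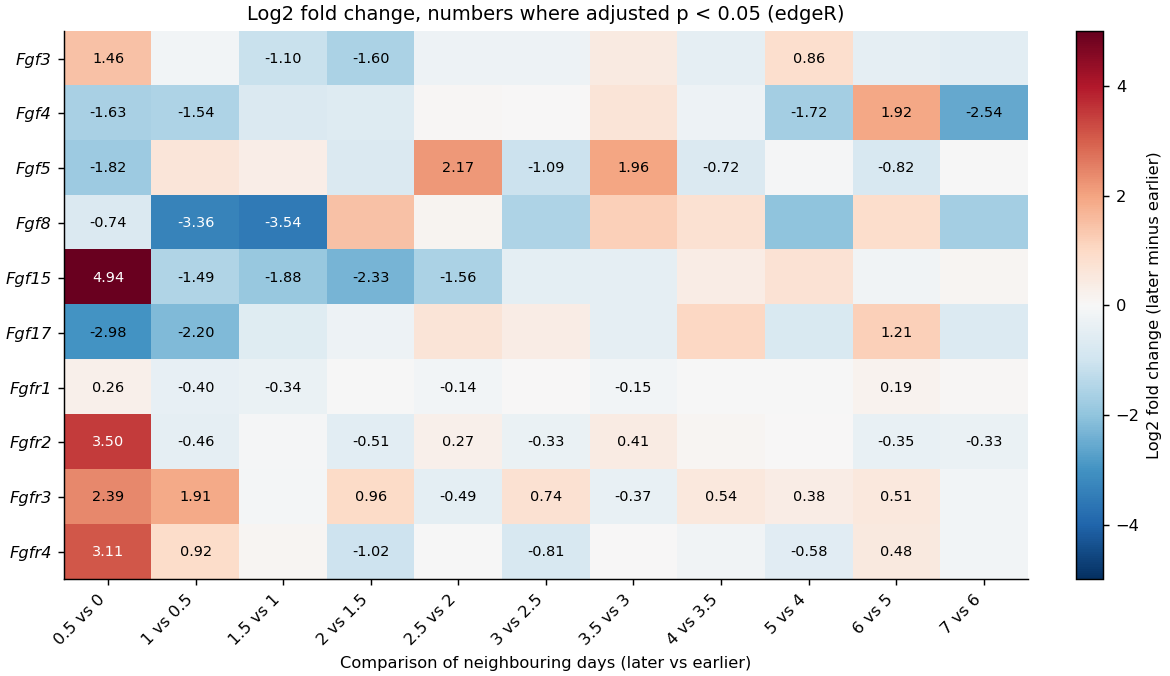
Log2 fold change of each member (rows) between neighbouring days (columns), later against earlier, from the edgeR fit over 36 libraries. Numbers are printed where the adjusted p was under 0.05, and colour runs from blue (lower) to red (higher). All 10 rows have a number in the first column. Fgf8 rests on 0 to 4 counts per library from day 1.5 on, so the size of its fold there depends on the prior count of the fit.

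Fgf8, Fgf17 and Fgf4 were the ligands whose highest mean was at day 0. They were not the only ones present: at day 0 Fgf15 had a mean of 1.71 TPM against 2.03 TPM for Fgf4, with overlapping libraries, and Fgf3 had 1.02 TPM. Fgf8 (ENSMUSG00000025219, GRCm38 chromosome 19, 45736798 to 45742915, minus strand), the ligand best known for holding cells in the tail bud state, stood at 8.07, 9.55 and 9.19 TPM at day 0. It was at 5.29, 7.16 and 4.29 TPM at day 0.5 and at 0.61, 0.26 and 0.81 TPM at day 1, each group below the one before. The first of these falls was small (log2 -0.74 ± 0.28, approximate standard error, adjusted p = 0.0244), and its adjusted p was 0.102 without day 0 replicate 2, 0.0649 without day 0 replicate 3, 0.0663 without day 0.5 replicate 1, 0.155 without day 0.5 replicate 3 and 0.235 with limma on log2(TPM + 0.1). The second fall was large (-3.36 ± 0.37, adjusted p = 3.29e-09). At day 1.5 the 3 libraries held 0, 1 and 1 Fgf8 counts against 10, 5 and 11 at day 1, which was called lower as well (adjusted p = 0.000384), and no later library held more than 4.

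Fgf17, a close relative of Fgf8, was nearly gone at day 0.5. It stood at 6.06, 6.59 and 6.41 TPM at day 0 and at 0.59, 1.18 and 0.65 TPM at day 0.5 (log2 -2.98 ± 0.31, adjusted p = 7.14e-10). At day 1 it was at 0.07, 0.1 and 0.33 TPM (-2.20 ± 0.45, adjusted p = 0.000136). So at day 0.5, when Fgf8 still had a mean of 5.58 ± 1.46 TPM (SD, n = 3), Fgf17 had 0.807 ± 0.325 TPM. Fgf17 (ENSMUSG00000022101) lies on chromosome 14 from 70636203 to 70642268, minus strand. It was low for the rest of the course, and a rise to 0.33, 0.86 and 0.44 TPM at day 6 (1.21 ± 0.49, adjusted p = 0.0379) was no longer called when day 5 replicate 1 (0.204) or day 6 replicate 2 (0.284) was left out.

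Fgf4, the ligand with which embryonic stem cells leave the naive state, fell at day 0.5 and again at day 1. It stood at 1.99, 2.31 and 1.79 TPM at day 0, at 0.57, 0.74 and 0.65 TPM at day 0.5 (log2 -1.63 ± 0.31, adjusted p = 3.4e-05) and at 0.26, 0.5 and 0.31 TPM at day 1 (-1.54 ± 0.38, adjusted p = 0.000955, but 0.160 with limma on log2(TPM + 0.1)). From day 1.5 it had 0 to 11 counts per library, and its last 3 calls rest on that few: lower at day 5 (6 counts over the 3 libraries against 20 at day 4, adjusted p = 0.0431), higher at day 6 (24 counts, 0.0141) and lower at day 7 (4 counts, 0.00877). The call at day 5 ended without day 4 replicate 1 or 3 or day 5 replicate 1 or 2 (adjusted p = 0.110 to 0.208). That at day 6 ended when day 5 replicate 1 (0.0898) or 2 (0.0638) was left out, and that at day 7 without day 7 replicate 2 (0.0572). Fgf4, Fgf8 and Fgf17 fell over the same 2 steps in which the caudal epiblast list went from 929 over 237 to 16.9 TPM and the pluripotent list from 440 over 109 to 42.4 TPM. The part of those cells in the falls was not tested.

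Fgf15 was the ligand that rose most in the first 0.5 days of RA and SAG. This gene (ENSMUSG00000031073, chromosome 7, 144896531 to 144900953, plus strand) encodes an FGF made by early neural tube progenitors. It stood at 1.5, 1.83 and 1.79 TPM at day 0 and at 52.46, 51.53 and 53.34 TPM at day 0.5, which made it the most abundant ligand of the 6 (log2 4.94 ± 0.12, adjusted p = 3.61e-26). At day 1 it was at 19.73, 18.75 and 19.04 TPM, at day 1.5 at 4.68, 5.52 and 4.9 TPM and at day 2 at 1.3, 0.79 and 1.24 TPM. The rise was over within 1 sampling interval, and each of the next 4 steps was a fall (-1.49 ± 0.10, -1.88 ± 0.11, -2.33 ± 0.15 and -1.56 ± 0.24, adjusted p = 2.02e-06 or less). Ordered by level, the times ran 0.5, 1, 1.5, 0 and 2 with no overlap of libraries between neighbours, and the other 7 times overlapped at 0.267 to 0.5 TPM in the mean. The level at day 7 was below that of day 0 (-2.21 ± 0.21, adjusted p = 2.17e-11). Gm26793, an antisense gene on the other strand, shares 761 bases or 24.9% of the exon sequence, and no source used here says whether reads were counted by strand, so the value is uncertain to that extent. That gene was listed at 0.59 TPM at day 0.5 and at 1.02 TPM, its highest, at day 7.

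Fgf3 rose at the same step as Fgf15 and kept its level through day 1. This hindbrain and otic ligand (ENSMUSG00000031074, chromosome 7, 144838083 to 144844436, plus strand) stood at 0.85, 0.98 and 1.24 TPM at day 0, at 3.05, 2.44 and 2.92 TPM at day 0.5 and at 3.22, 2.64 and 1.96 TPM at day 1. The first step was a rise (log2 1.46 ± 0.24, adjusted p = 4.56e-06), and the second was within the spread (-0.15 ± 0.22, adjusted p = 0.612). It then fell at day 1.5 (0.89, 1.31 and 1.56 TPM, -1.10 ± 0.24, adjusted p = 0.000237) and at day 2 (0.41, 0.54 and 0.35 TPM, -1.60 ± 0.29, adjusted p = 1.82e-05). After that its mean stayed between 0.307 and 0.78 TPM. The rise called at day 5 (0.86 ± 0.34, adjusted p = 0.0476) was lost under 10 of 13 alternatives, among them DESeq2 (0.0555) and the fits that left out any 1 of day 4 replicates 1, 2 and 3 and day 5 replicates 1 and 3 (0.0541 to 0.222). Neural progenitor markers went from 61.7 to 435 TPM over the same first step and on to 635 TPM at day 1, when Fgf15 was already falling. Their part in the rise of Fgf15 and Fgf3 was not tested.

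Among the 6 ligands, only Fgf5 had its highest mean at day 3.5. This gene (ENSMUSG00000029337, chromosome 5, 98254184 to 98277030, plus strand) encodes a ligand best known as a marker of the primed epiblast. It stood at 0.82, 0.81 and 0.43 TPM at day 0 and fell to 0.28, 0.23 and 0.16 TPM at day 0.5 (log2 -1.82 ± 0.32, adjusted p = 1.29e-05), where it stayed until day 2 (0.27, 0.23 and 0.26 TPM). It came back in steps that alternated in sign, with the signs of Fgfr2 and the reverse of those of Fgfr3 at days 2.5, 3 and 3.5. It rose to 0.94, 1.04 and 1.1 TPM at day 2.5 (2.17 ± 0.29, adjusted p = 1.77e-07), fell to 0.86, 0.32 and 0.43 TPM at day 3 (-1.09 ± 0.26, adjusted p = 0.00124), and rose to its highest value, 2.66, 2.03 and 1.97 TPM, at day 3.5 (1.96 ± 0.25, adjusted p = 2e-07). From there it went down to 1.66, 1.23 and 1.55 TPM at day 4 (-0.72 ± 0.22, adjusted p = 0.00969, 0.154 with limma on log2(TPM + 0.1)) and to 0.51, 0.79 and 0.58 TPM at day 7, with a fall called at day 6 (-0.82 ± 0.25, adjusted p = 0.00618) that ended with limma (0.08 on log2(TPM + 1)). At day 7 against day 0 no change passed the test (-0.17 ± 0.26, adjusted p = 0.551). At its highest, Fgf5 made 65.9% ± 6.15 (SD, n = 3) of the summed TPM of the 6 ligands. The summed neuron markers went up over the same days, from 461 TPM at day 2 to 1136 TPM at day 2.5 and 1336 TPM at day 3.5, without a fall at day 3 (1171 TPM), and their part in the return of Fgf5 was not tested.

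Summed over the 6 ligands, the level was 20.7 ± 1.39 TPM at day 0, 62.5 ± 0.677 TPM at day 0.5 and 23.1 ± 0.944 TPM at day 1, and then 1.53 to 3.38 TPM in the mean from day 2 on. Its make-up changed with it. At day 0 Fgf8 made 43.1% and Fgf17 30.7% of the sum, at day 0.5 Fgf15 made 83.9%, and at day 3.5 Fgf5 made the largest share.

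**Figure D2:**
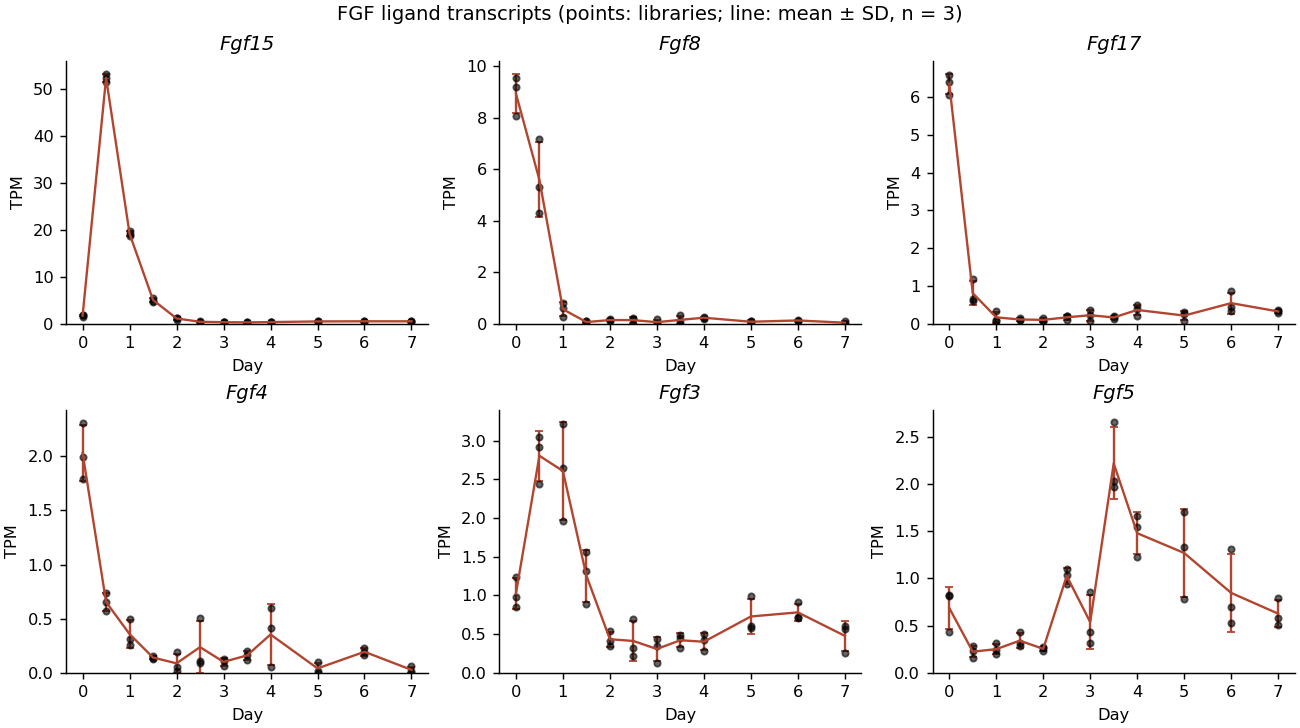
TPM of the 6 ligands by day, 1 panel a gene with its own scale. Points are libraries, lines join the means and bars are SD (n = 3). Fgf15 reaches 52.4 TPM at day 0.5, Fgf8, Fgf17 and Fgf4 are highest at day 0, Fgf3 at days 0.5 and 1, and Fgf5 at day 3.5.

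Fgf3, Fgf4 and Fgf15 are neighbours on chromosome 7, and their courses were compared with those of the protein-coding genes that start within 300000 bases of the Fgf4 start. Fgf4 (ENSMUSG00000050917, 144847367 to 144865243, plus strand) lies between Fgf3 and Fgf15. Relative to the start of this GENCODE span, Fgf3 starts at -9284 bases and Fgf15 at 49164 bases. The RefSeq promoter window of Fgf4 printed above ends at 144861385, inside this span, so distances from that start site would differ. The other 4 genes of this window are Fadd, an adaptor of death receptors, Ano1, a chloride channel, LTO1, and Ccnd1, the cyclin that drives cells through G1. All 6 genes other than Fgf4 rose from day 0 to day 0.5, a step at which 27.6% of all genes tested rose. Of these, Fgf15 and Fgf3 are members described above. The log2 changes were 4.94 for Fgf15, 3.83 for Ano1, 1.46 for Fgf3, 0.94 for Ccnd1, 0.83 for Fadd and 0.37 for LTO1, while Fgf4 fell by 1.63 on the log2 scale. Their later courses parted. Ano1 went on from 8.37 ± 1.16 TPM at day 0.5 to 12.1 ± 1.08 TPM at day 1 (log2 0.46, adjusted p = 0.0018) and was at 3.02 ± 0.216 TPM at day 1.5. Ccnd1 was at 160 ± 1.06 TPM at day 0.5 and ended at 6.44 ± 0.108 TPM at day 7, below day 0 (log2 -4.09, adjusted p = 2.24e-30). LTO1 was higher at day 7 than at day 0 (1.07, adjusted p = 8.19e-18). The annotated spans of LTO1 and Ccnd1 overlap on opposite strands, so their values are uncertain to that extent.

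**Figure D3:**
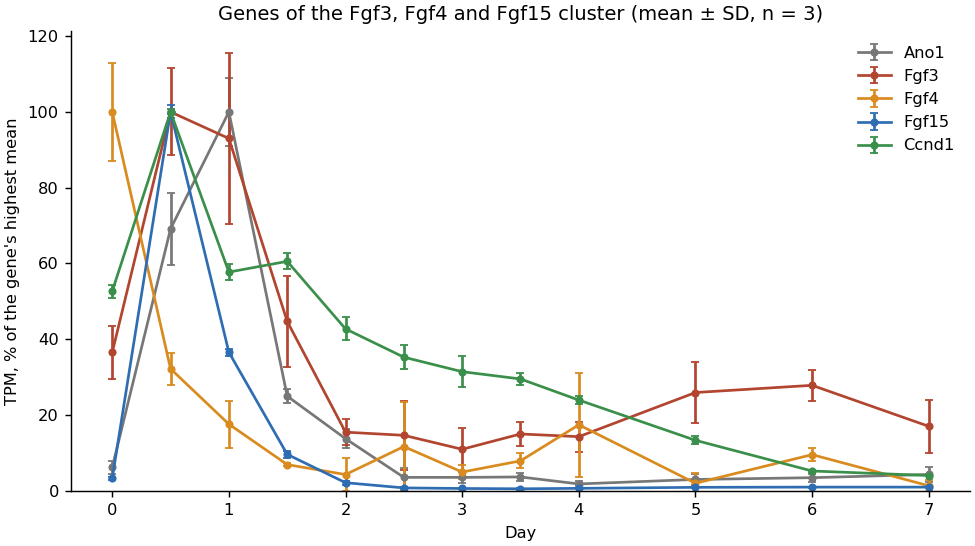
Mean TPM of Fgf3, Fgf4, Fgf15 and 2 genes beside them, Ano1 and Ccnd1, by day, each as a percent of the gene's highest mean (bars: SD, n = 3). Fgf4 starts at its highest value at day 0, Fgf15, Fgf3 and Ccnd1 are highest at day 0.5, and Ano1 at day 1.

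Fgfr1 was the main receptor of the starting cells and had the smallest ratio of highest to lowest mean TPM of the 4 receptors. Fgfr1 (ENSMUSG00000031565, chromosome 8, 25513654 to 25575718, plus strand) stood at 128.62, 143.34 and 133.8 TPM at day 0 and at 145.86, 150.72 and 154.5 TPM at day 0.5. These libraries did not overlap, and the rise was small (log2 0.26 ± 0.04, adjusted p = 1.58e-06). It then fell at day 1 (118.67, 114.32 and 104.91 TPM, -0.40 ± 0.04, adjusted p = 4.16e-10) and at day 1.5 (86.76, 82 and 85.83 TPM, -0.34 ± 0.04, adjusted p = 1.68e-08). From day 1.5 to day 5 its means lay between 82.1 and 93.0 TPM, and the libraries of neighbouring times in the order of levels overlapped. A fall was called within that stretch at day 2.5 (-0.14 ± 0.04, adjusted p = 0.00583), which ended without day 2.5 replicate 3 (0.0578) and with limma (0.123 on log2(TPM + 1)), and another at day 3.5 (-0.15 ± 0.04, adjusted p = 0.00365). At day 6 it rose again, to 103.39, 107.97 and 107.85 TPM (0.19 ± 0.04, adjusted p = 0.000194), and day 7 stood 0.58 below day 0 on the log2 scale (106.4, 108.14 and 108.93 TPM, log2 -0.58 ± 0.04, adjusted p = 3.3e-15). With limma on log2(TPM + 1) the same fall was -0.32, on a scale on which the median of all genes stood 0.23 higher for this comparison than in the fit of counts. Its highest mean was 1.83 times its lowest. An antisense gene, Gm16159, shares 1.66% of its exon sequence and was listed at 0.0633 TPM or less.

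Fgfr2 was 9.78 times as high in mean TPM at day 0.5 as at day 0. Fgfr2 (ENSMUSG00000030849, chromosome 7, 130162451 to 133123350, minus strand) stood at 10.61, 11.82 and 13 TPM at day 0 and at 106.62, 111.26 and 128.62 TPM at day 0.5, its highest time (log2 3.50 ± 0.06, adjusted p = 1.86e-30). It never went back to its starting level: the lowest later mean was 63.7 ± 3.64 TPM at day 7 (64.6, 59.67 and 66.77 TPM), which was 2.25 ± 0.06 above day 0 on the log2 scale (adjusted p = 1.88e-26). In between it moved up and down. It fell at day 1 (-0.46 ± 0.05, adjusted p = 4.89e-09) and at day 2 (67.1, 69.84 and 54.67 TPM, -0.51 ± 0.05, adjusted p = 6.22e-10), rose at day 2.5 (76.1, 85.63 and 75.19 TPM, 0.27 ± 0.05, adjusted p = 7.18e-05), fell at day 3 (64.49, 62.91 and 66.13 TPM, -0.33 ± 0.05, adjusted p = 8.36e-06) and rose at day 3.5 (87.33, 91.96 and 79.15 TPM, 0.41 ± 0.05, adjusted p = 2.58e-07). In each of these steps the 3 later libraries lay outside the range of the 3 earlier ones. From day 5 it fell at both remaining steps (-0.35 ± 0.05 at day 6 and -0.33 ± 0.05 at day 7). The annotated span is long and includes exon sequence shared with Ctbp2 on the same strand (314 bases, 3.04%). Ctbp2 went from 261 TPM at day 0 to 147 TPM at day 0.5, the opposite direction to Fgfr2, and to 96.6 TPM at day 7.

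Fgfr3 was the receptor that built up over the whole course. Fgfr3 (ENSMUSG00000054252, chromosome 5, 33721674 to 33737068, plus strand) stood at 1.68, 1.83 and 2.95 TPM at day 0, at 8.64, 9.54 and 10.88 TPM at day 0.5 (log2 2.39 ± 0.11, adjusted p = 2.9e-19) and at 39.06, 35.12 and 30.24 TPM at day 1 (1.91 ± 0.08, adjusted p = 2.79e-20). By day 6 it was at 197.64, 220.13 and 202.88 TPM and at day 7 at 197.24, 216.38 and 169.84 TPM, which overlap. Day 7 stood 6.37 ± 0.09 above day 0 on the log2 scale (adjusted p = 5.81e-34), and the highest mean TPM was 96.1 times the lowest. The climb was not even. Fgfr3 had no called change at day 1.5 (34.34, 33.3 and 33.65 TPM, -0.08 ± 0.07, adjusted p = 0.359), rose at day 2 (68.42, 67.02 and 73.06 TPM, 0.96 ± 0.07), fell at day 2.5 (56.2, 53.62 and 46.19 TPM, -0.49 ± 0.07), rose at day 3 (85.71, 87.52 and 92.4 TPM, 0.74 ± 0.07), fell at day 3.5 (71.17, 67.6 and 68.94 TPM, -0.37 ± 0.06) and rose at day 4 (113.84, 107.96 and 108.68 TPM, 0.54 ± 0.06). These 5 changes passed with adjusted p of 2.32e-05 or less, and in each the 3 later libraries lay outside the range of the 3 earlier ones. Of the 11 pairs of neighbours in the order of levels, 8 were separate. The rises at day 5 (139.53, 137.03 and 125.27 TPM, 0.38 ± 0.06, adjusted p = 1.11e-05, 0.0871 with limma on log2(TPM + 0.1)) and day 6 (0.51 ± 0.06, adjusted p = 2.91e-08) closed the climb.

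Between day 1.5 and day 3.5 Fgfr2 and Fgfr3 moved in opposite directions at every step. Fgfr3 rose at days 2 and 3, when Fgfr2 fell, and Fgfr3 fell at days 2.5 and 3.5, when Fgfr2 rose. The medium was changed daily, and no source used here gives the hours of the changes or of collection. The summed markers of several cell types went up with Fgfr3 over the course: astroglial and radial glial from 14.8 to 3503 TPM, floor plate from 27.9 to 1948 TPM, neuron from 62.9 to 1278 TPM and fibroblast or feeder from 32.6 to 867 TPM, with none of their markers at 0 at day 7. Their part in the rise of Fgfr3 was not tested. G630022F23Rik shares 998 bases, 13.9% of the Fgfr3 exon sequence, on the other strand and was listed at no more than 1.43 TPM in the mean at any time.

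Fgfr4 was the rarest receptor at every time, and its rise was brief. Fgfr4 (ENSMUSG00000005320, chromosome 13, 55152640 to 55168759, plus strand) stood at 0.24, 0.19 and 0.27 TPM at day 0, at 2.04, 2.15 and 2.27 TPM at day 0.5 (log2 3.11 ± 0.17, adjusted p = 7.28e-17) and at 3.99, 3.82 and 4.05 TPM at day 1 (0.92 ± 0.12, adjusted p = 8.75e-08). Its highest time, day 1.5 (4.01, 3.92 and 4.4 TPM), overlapped with day 1. It then fell at day 2 (2.17, 2.71 and 2.07 TPM, -1.02 ± 0.12, adjusted p = 6.21e-09) and at day 3 (1.22, 1.41 and 1.42 TPM, -0.81 ± 0.13, adjusted p = 9.48e-06). It ended at 0.97, 1.27 and 1.71 TPM, still above day 0 (1.89 ± 0.19, adjusted p = 3.42e-11). A dip at day 5 (0.94, 0.88 and 0.67 TPM, adjusted p = 0.00253) and its reversal at day 6 (adjusted p = 0.00853) were less firm. The dip ended without day 4 replicate 1 (0.0515). The reversal ended without day 5 replicate 3 (0.0957), without day 6 replicate 1 (0.0547), without the filter on low counts (0.0585) and in a fit of only the libraries compared (0.0619).

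**Figure D4:**
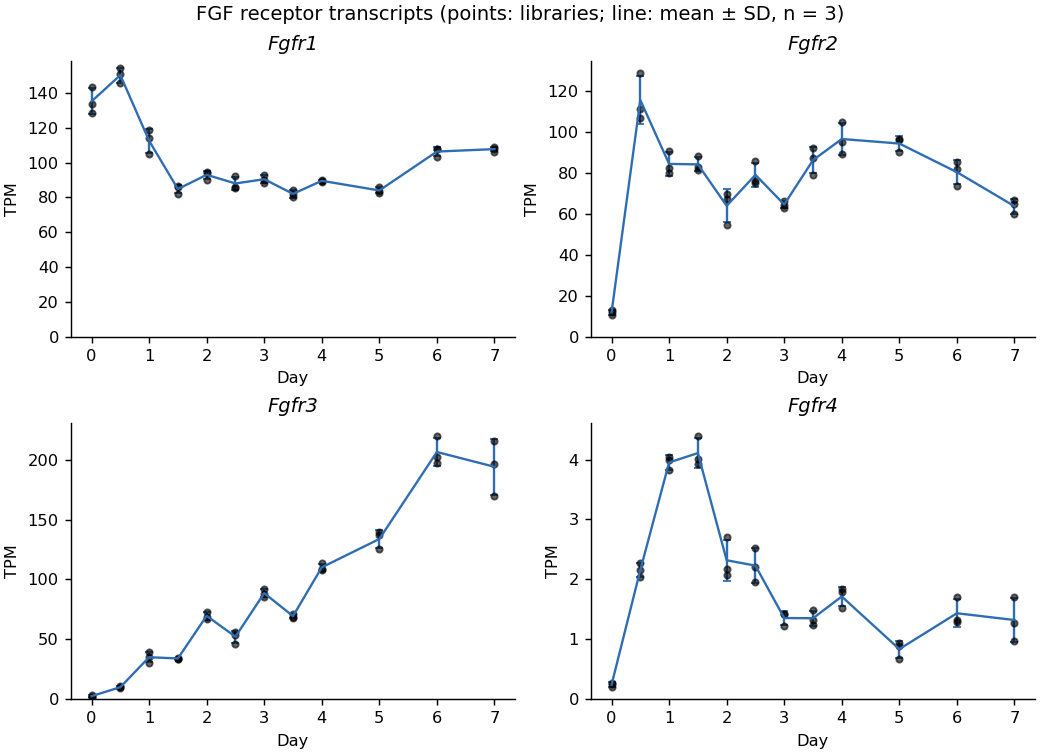
TPM of the 4 receptors by day, 1 panel a gene with its own scale starting at 0. Points are libraries, lines join the means and bars are SD (n = 3). By their means, Fgfr1 stays between 82.1 and 150 TPM, Fgfr2 is highest at day 0.5 with 116 TPM, Fgfr3 reaches 207 TPM at day 6, and Fgfr4 does not pass 4.11 TPM.

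Since TPM corrects for length, the receptors can be set against each other within a library. Fgfr1 made 90.5% ± 1.14 (SD, n = 3) of the summed receptor TPM at day 0 and 54.2% ± 1.80 at day 0.5, when Fgfr2 made 41.5% ± 1.63. At day 1.5 Fgfr1 and Fgfr2 were level, at 41.0% ± 0.462 and 40.7% ± 0.646. At day 7 Fgfr3 made 52.8% ± 3.65, Fgfr1 29.4% ± 1.74, Fgfr2 17.4% ± 1.88 and Fgfr4 0.362% ± 0.118. Between day 0 and day 7 the share of Fgfr1 moved by -61.1 percentage points, that of Fgfr3 by 51.4, that of Fgfr2 by 9.50 and that of Fgfr4 by 0.205, with no overlap of libraries. On expected counts the move of Fgfr1 was -60.7 points. Each of these 4 differences had p = 0.1 in a two-sided exact permutation test, the smallest value that 3 against 3 libraries allow (0.1 also after Benjamini-Hochberg adjustment over the 4), and the shares are not independent because they sum to 100%. The receptor sum itself went from 149 ± 8.03 TPM at day 0 to 278 ± 16.9 TPM at day 0.5, 207 ± 6.19 TPM at day 1.5 and 395 ± 19.2 TPM at day 6. The sum of the 6 member ligands was 20.7 TPM at day 0, 62.5 TPM at day 0.5 and 1.99 TPM at day 7. The receptor sum was higher at day 7 (367 ± 19.2 TPM) than at day 0.5. That ligand sum leaves out the other FGF ligand genes described below. Of the 11 of these tested, 8 were higher and 1 lower at day 7 than at day 0 (44.1% and 41.2% of all genes).

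**Figure D5:**
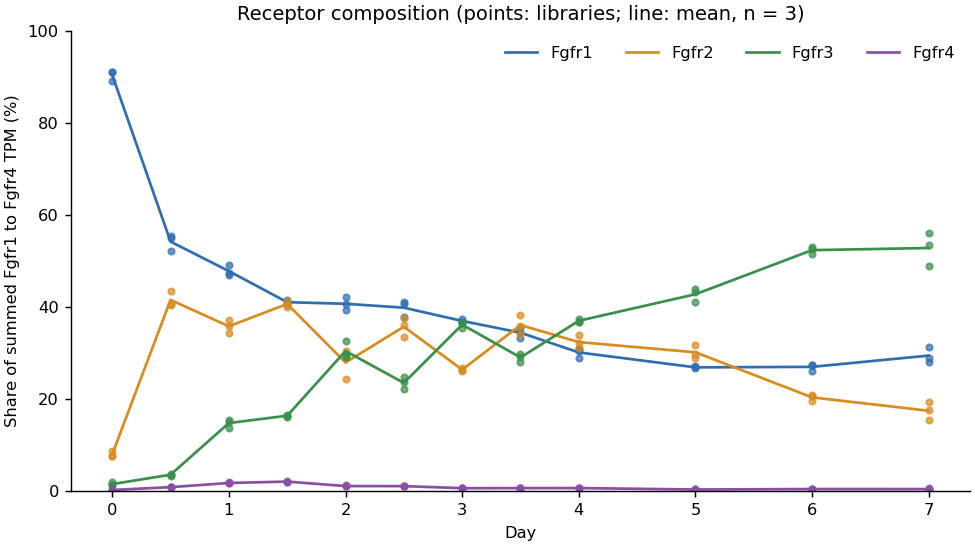
Share of each receptor in the summed TPM of Fgfr1 to Fgfr4 of the same library, in percent, by day. Points are libraries and lines join the means of 3. Fgfr1 goes from 90.5% to 29.4%, Fgfr3 from 1.44% to 52.8%, and Fgfr2 and Fgfr3 cross back and forth between days 2 and 4.

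Beyond the members, 4 lists cover the rest of the pathway. Of 16 other FGF ligand genes 11 were tested. From day 0 to day 0.5, 3 rose and 4 fell (27.6% and 26.7% of all genes), with a median log2 change of -0.24, against 0 over all genes tested. From day 0 to day 7, 8 rose and 1 fell (44.1% and 41.2% of all genes), with a median of 1.62, against 0.05 over all genes. These pairs of all-gene shares hold for each list below. The ones with enough counts to be named at day 7 were Fgf12 (log2 5.07 ± 0.17, from 0.633 ± 0.112 to 27.2 ± 1.46 TPM), Fgf11 (1.62 ± 0.10) and Fgf13 (0.16 ± 0.07, adjusted p = 0.039). These 3 belong to the FGF homologous factors, which act inside the cell on sodium channels rather than as secreted ligands. The values of Fgf13 depend on the unit: in TPM it went from 15.3 ± 0.724 at day 0 to 40.8 ± 4.17 at day 7, far more than in the fit of counts, and at day 0.5 a fall was called in the fit (-0.24 ± 0.07) while the TPM libraries overlapped (15.8 ± 2.31). Secreted ligands rose too. Fgf18, named with the next 3 genes after their values were seen, went from 0.5 ± 0.185 TPM at day 0 to 17.8 ± 0.39 TPM at day 2.5, when the 6 member ligands summed to 2.37 TPM, and was at 5.73 ± 0.462 TPM at day 7 (log2 3.19 ± 0.24 against day 0). Fgf9 went from 0.97 ± 0.426 to 4.63 ± 0.396 TPM (1.71 ± 0.20), and Fgf7 and Fgf1 were also higher at day 7 (1.27 ± 0.556 and 0.893 ± 0.38 TPM).

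Of 10 coreceptors, adhesion partners and the decoy receptor Fgfrl1, 9 were tested, and 8 rose and 1 fell at day 0.5 (median log2 change 0.84). The largest changes among genes with a mean of at least 10 CPM in 1 of the groups were those of Ncam1, a neural adhesion molecule that can bind FGF receptors (2.82 ± 0.07, from 11.4 ± 0.275 to 79.9 ± 8.27 TPM), Flrt3 (1.84 ± 0.09) and Fgfrl1 itself, which binds FGFs but lacks the kinase (0.90 ± 0.06, from 14.8 ± 0.438 to 27.6 ± 0.666 TPM). At day 7, 7 stood higher and 1 lower than at day 0 (median 1.82), led by Flrt2 (4.90 ± 0.13), Ncam1 (4.81 ± 0.08) and Flrt1 (3.82 ± 0.16).

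The 16 adaptors and enzymes between receptor and ERK moved in both directions. At day 0.5, 5 rose and 7 fell (median log2 change -0.05), with the largest changes in the adaptor Shc1 (-0.85 ± 0.06) and the kinases Map2k2 (0.42 ± 0.05) and Braf (-0.39 ± 0.05). At day 7, 8 stood higher and 7 lower than at day 0 (median 0.08). Frs3, a docking protein of FGF receptors, rose (2.14 ± 0.10), and Shc1 (-1.97 ± 0.06) and the docking protein Gab1 (-0.83 ± 0.05) fell.

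The 15 feedback and ETS genes mostly fell at the first step. At day 0.5, 12 fell and 1 rose (median log2 change -1.28). Egr1 (-2.80 ± 0.13) and Spry4 (-2.30 ± 0.10) fell most among the abundant ones, and the riser was Dusp5, an ERK phosphatase (2.03 ± 0.10, from 4.98 ± 0.305 to 20.3 ± 1.13 TPM). At day 7, 14 stood lower and 1 higher than at day 0 (median -1.56). Etv4 went from 157 ± 4.27 to 2.45 ± 0.712 TPM (-6.34 ± 0.12), Etv5 from 52.1 ± 2.62 to 4.46 ± 0.596 TPM (-3.91 ± 0.13) and the receptor inhibitor Il17rd from 39.0 ± 1.41 to 4.66 ± 0.116 TPM (-3.43 ± 0.10). The gene that stood higher was Etv1 (0.81 ± 0.09).

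From day 1.5 to day 4, the list went down at day 1.5 and up at days 2 and 3, with fewer calls at days 2.5, 3.5 and 4. At day 1.5, 14 of the 15 genes were lower than at day 1 and 0 higher (median log2 change -0.99), where 19.4% of all genes were lower. At day 2, 11 were higher and 2 lower than at day 1.5 (median 0.79, 26.1% of all genes higher), and at day 3, 10 were higher and 1 lower than at day 2.5 (0.58, 18.1% of all genes higher). At day 2.5, 4 were higher and 5 lower than at day 2 (0.07, 22.9% of all genes lower), at day 3.5, 6 were lower and 1 higher than at day 3 (-0.16, 19.8% of all genes lower), and at day 4, 3 were higher and 3 lower than at day 3.5 (0.04, 19.4% and 20.8% of all genes). Dusp6, a phosphatase that removes ERK's activating phosphates, was chosen here after its values were seen and changed at every one of these steps: 33.5 ± 3.14 TPM at day 1, 8.73 ± 1.49 at day 1.5, 33.1 ± 6.47 at day 2, 23.0 ± 5.16 at day 2.5, 49.1 ± 2.89 at day 3, 34.6 ± 1.00 at day 3.5 and 46.0 ± 5.05 at day 4. Dusp6 rose at days 2 and 3 (log2 1.72 ± 0.12 and 0.93 ± 0.11), steps at which Fgfr3 rose and Fgfr2 fell, and fell at days 2.5 and 3.5 (-0.46 ± 0.11 and -0.49 ± 0.11), steps at which Fgfr3 fell and Fgfr2 rose. Its mean at day 2 was no higher than that at day 3.5. At day 1.5, when Dusp6 fell, neither Fgfr2 nor Fgfr3 had a called change. At other steps the list and Fgfr3 went different ways. At day 0.5, 12 genes of the list were lower and 1 higher than at day 0 (26.7% of all genes lower). At day 1, 7 were lower and 2 higher than at day 0.5 (24.3% of all genes lower). Fgfr3 rose at day 0.5 and at day 1, and had no called change at day 1.5. At day 5, 10 genes of the list were lower and 1 higher than at day 4 (median -0.32, 16.8% of all genes lower). At day 6, 7 were lower and 1 higher than at day 5 (-0.19, 26.4% of all genes lower). Fgfr3 rose at both of these steps. At day 7, 7 were higher and 1 lower than at day 6 (0.32, 11.3% of all genes higher), and Fgfr3 had no called change.

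The genes whose course was most like each member's were found by Pearson's r of log2 CPM over the 36 libraries, among 11222 genes, as a description in which all points share libraries and times. For Fgfr3 they were Cxxc4 (r = 0.989), Trim9 (0.985) and Sox5 (0.985), and for Fgfr1 Gprc5c (0.972), Sema3e (0.968) and Dact2 (0.966). For Fgf15 they were Lgr5 (0.962), Add3 (0.962) and its neighbour Ano1 (0.957), and for Fgf3 Trh (0.937), Fbln1 (0.933) and again Lgr5 (0.928). Fgf8 was closest to Cdx4 (0.958), Vrtn (0.958) and Lhpp (0.957), and Fgf17 to Platr15 (0.937), Evx1 (0.929) and Col4a3bp (0.924), so both lists hold a gene known from the caudal embryo, Cdx4 and Evx1. Fgf4 was closest to Pou5f1 (0.944), Zfp42 (0.936) and Tfcp2l1 (0.929), all known as pluripotency genes. Fgfr2 was closest to Akap2 (0.930), Sox1ot (0.929) and Fzd8 (0.927), and Fgfr4 to Fbn2 (0.929), Ptch1 (0.923) and Atoh8 (0.923). For Fgf5 the closest genes were Uba1 (0.849), Arpc2 (0.826) and Rtn4 (0.825), the lowest values of the 10 members. The names depend on the scale: of each member's 3 genes, 0 to 2 were also among the 3 closest on log2(TPM + 1), and 0 or 1 by Spearman's rho.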

How the data were processed

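The authors' tools were bcl2fastq 2.20.0 and RSEM, and the build was GRCm38, per the submitters' processing notes. No source used here gives the aligner, annotation release or strand setting. The authors deposited expected counts per gene, of which 6.87% were not whole, and abundance in TPM, whose columns sum to 999999.21 to 1000000.98. Symbols matched 51633 of 51912 identifiers (99.9% of counts). Positions and exon overlaps come from GENCODE M21 on GRCm38, and promoters from RefSeq.

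Expected counts were rounded. Genes were kept with filterByExpr by time point (17990 of 32047 with a count), and 1 model with 12 groups, TMM scaling (0.924 to 1.06) and 24 residual degrees of freedom was fitted to all 36 libraries with edgeR 4.0.16 in R 4.3.3. Neighbouring times, day 7 against day 0 and any change over time were tested, with Benjamini-Hochberg adjustment over all genes. The standard error is approximate: the log2 fold change over the square root of F. It can be too small near 0 counts. On simulated data with 200 of 17990 genes changed, the fit for day 0.5 against day 0 recovered 65.7%, 77.6% and 83.3% of 1.5-, 2- and 4-fold changes with 6.21% of calls false, and for day 7 against day 0 61.2%, 79.1% and 84.8% with 3.85%. Far more genes were called in the data (27.6% higher and 26.7% lower at day 0.5, 44.1% and 41.2% at day 7). The simulated rates therefore need not hold for the data. Reads carry no molecular identifiers that the sources name, so precision from depth covers counting error only.

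Members, lists, markers and the naming rule were chosen with earlier results of these data known. Of each list the up to 3 called genes with the largest change and a mean of at least 10 CPM in 1 group were named for day 0.5 and day 7 against day 0. Alternatives were median-of-ratios scaling, no filter, the replicate number as a block, only the libraries compared, DESeq2 1.42.0, limma 3.58.1 on log2(TPM + 1) and log2(TPM + 0.1), and each library left out.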

Additional observations from a re-analysis of the deposited data

How the results depend on the processing

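The members had 64 calls over the 12 comparisons. Of these, 51 were kept under every alternative that gave a value and 13 were lost under at least 1, and of 827 values under alternatives 39 lost a call and 0 reversed. The 51 include Fgf8 at day 1.5 against day 1, which had a value under only 12 alternatives and rests on few counts. The number of members called moved by over 1.5 times in 3 comparisons. For day 5 against day 4 (4 members) it was 2 with only the libraries compared, 2 with limma on log2(TPM + 0.1) and 1 to 3 with 1 library left out. For day 6 against day 5 (7) it was 4 with only the libraries compared. For day 7 against day 6 (2) it was 1 with only the libraries compared, 1 with limma on log2(TPM + 1) and 1 to 2 with 1 library left out. With only the libraries compared, Fgf4 (days 5, 6 and 7) and Fgf17 (day 6) no longer passed the filter and were not tested, and Fgf3 (day 5) and Fgfr4 (day 6) lost their calls. For the other values the cause was not tested. On log2(TPM + 1) and log2(TPM + 0.1) the median of all genes for day 7 against day 0 moved by 0.23 and 0.33 from that of the fit of counts, and on log2(TPM + 0.1) by 0.12 at day 2 and 0.11 at day 4. With the replicate block 10 members were called for day 0.5 against day 0 and 9 for day 7 against day 0, as without it. Libraries of the same number did not deviate together (correlations -0.0735 to 0.0801), so the numbers do not pair them. Depth limits Fgf4, Fgf8 and Fgf17 from day 1.5 on, with 0 to 20 counts per library. It also limits Fgf15 from day 2.5 on (3 to 17), Fgf3 from day 2 on (5 to 28) and Fgf5 from day 0.5 to day 2 (3 to 15).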
